A study of Mus musculus with 12 samples.

Results

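The 10 genes described here encode tubulins, the proteins that microtubules are built from. They are the α-tubulin genes *Tuba1a*, *Tuba1b*, *Tuba1c* and *Tuba4a*, the β-tubulin genes *Tubb5*, *Tubb4b*, *Tubb2a*, *Tubb2b* and *Tubb6*, and the γ-tubulin gene *Tubg1*. They were taken by name, as tubulin genes, by a rule that uses no measured value, although earlier results of these data were known. The rule connects the family with the autoregulation of tubulin mRNA during translation, which is described below for α- and β-tubulin only. All 10 are among the 41255 genes of the mRNA table, and 9 are among the 10080 genes of the table of ribosome footprints (RPF), where *Tubb2b* is not listed. The same 9 passed the filters for a test of mRNA, of RPF and of translation efficiency (TE, the ratio of RPF to mRNA).

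α- and β-tubulin form the dimer that assembles into microtubules, and γ-tubulin, as part of a ring complex, nucleates them. Cells tune the amount of tubulin while it is being made. When free dimers are in excess, TTC5 recognises the start of the nascent α- or β-tubulin chain as it leaves the ribosome and, with SCAPER, brings the CCR4-NOT deadenylase to the mRNA, which is then degraded. This decay depends on translation of the tubulin mRNA itself.

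Ba/F3 is a mouse pro-B cell line that depends on interleukin-3. In all 6 lines an shRNA lowered the mouse's own *Rpl10*, and a retroviral vector supplied human *RPL10*, either wild type (*WT*, clones 28, 29 and 36) or carrying the leukemia-associated R98S mutation (clones 11, 13 and 35). Each line is 1 monoclonal culture and gave 1 RPF library and 1 mRNA library, which makes 12 libraries. Every culture received 100 µg/ml cycloheximide for 5 min before lysis, and cycloheximide itself arrests ribosomes on mRNA. A genotype is thus represented by 3 clones, and p-values set the difference between genotypes against the spread between clones. Counted reads per mRNA library ranged from 20576796 to 22178094 in R98S clones and from 6617457 to 23136595 in WT clones. The lowest was WT clone 28, where 1 read is worth 2.69 normalized counts. The RPF libraries held from 3477723 to 10883086 reads in R98S and from 4611390 to 7162305 in WT clones. Mouse *Rpl10* mRNA, to which reads of knocked-down gene and transgene may both contribute, was at 2905, 1449 and 2355 in the R98S group (clones 11, 13 and 35, in normalized counts) against 4501, 2345 and 2230.3 in the WT group (clones 28, 29 and 36; adjusted p = 0.551, limma). Of 12 markers of early B cells and of interleukin-3 dependence, 6 were above 0 in all 6 mRNA libraries. The B lineage factor *Pax5* and the receptor *Kit* were at 0 in all of them, and *Ebf1*, *Vpreb1* and *Igll1* stayed under 10. The summed level of this list ran from 100806 to 122568 normalized counts in R98S and from 48089.8 to 93811 in WT clones. Most of it was the receptor genes *Csf2rb* (means of 60004 and 33338) and *Csf2rb2* (48611 and 25394), while *Ptprc* went the other way (4393 and 8109, adjusted p = 0.175, limma). The sum of 5 mast cell and basophil markers ran from 12241 to 15825 and from 20397 to 26588. It was mostly *Gata2*, which was lower in R98S (log2 change -0.73, adjusted p = 0.0805, limma), whereas *Cpa3* was higher (3.28, adjusted p = 0.0506, limma). Of 5 T cell markers, *Cd3e*, *Cd4* and *Cd8a* stayed under 10 and the sums ran from 69.9 to 92.0 and from 40.0 to 53.6, while fibroblast markers summed to at most 12.7. The part of these differences in the results on tubulin was not tested, and in bulk samples fewer cells of a type and less RNA per cell cannot be told apart.

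The coding starts show how alike the genes are, and in the α- and β-tubulin genes autoregulation is tied to them. They are given here for 9 of the genes, 5′ to 3′ on the coding strand, from GENCODE M21 transcripts of the mm10 genome. The capitals mark the first 4 codons.
Tuba1a: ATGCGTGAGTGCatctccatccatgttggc
Tuba1b: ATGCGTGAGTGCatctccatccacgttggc
Tuba1c: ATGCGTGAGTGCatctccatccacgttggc
Tuba4a: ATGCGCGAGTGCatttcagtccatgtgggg
Tubb5: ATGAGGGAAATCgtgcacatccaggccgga
Tubb4b: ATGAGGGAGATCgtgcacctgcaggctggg
Tubb2a: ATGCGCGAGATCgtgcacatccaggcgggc
Tubb2b: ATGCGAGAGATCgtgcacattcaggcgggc
Tubg1: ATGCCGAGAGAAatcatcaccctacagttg

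*Tuba1b* and *Tuba1c* had the same first 30 coding bases, and *Tuba1a* differed from them at 1. The first 12 bases of these 3 genes were shared by no other of the 21739 genes with a coding start in the annotation. *Tubb2a* and *Tubb2b* differed at 2 of the first 30 bases. *Tubg1* differed from each of the other genes at 7 or 8 of the first 12 bases. In the α-tubulin genes the first coding exon held only 3 bases, the start codon, so that the stretch shown spans an intron, while it held 57 bases in the β-tubulin genes and 49 in *Tubg1*. The first 15 and the last 5 codons were left out of the RPF counts, so no RPF value below counts a footprint on the start itself.

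In mm10, *Tuba1b* (chr15:98931425-98934565), *Tuba1a* (chr15:98949837-98953703) and *Tuba1c* (chr15:99029891-99038110) are neighbours on chromosome 15, the first 2 on the minus and the last on the plus strand. *Tubb2a* (chr13:34074274-34078007) and *Tubb2b* (chr13:34126748-34130466) lie side by side on chromosome 13. *Tubg1* (chr11:101119938-101126419) lies near *Tubg2* (chr11:101155907-101161787) on chromosome 11. The others are *Tuba4a* at chr1:75214228-75219865, *Tubb5* at chr17:35833921-35838306, *Tubb4b* at chr2:25222160-25224702 and *Tubb6* at chr18:67390717-67402749.

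How far a read can be assigned to 1 gene differed widely within the family. Aligned over the whole coding sequence, *Tuba1a* and *Tuba1b* were identical at 98.3% of positions, *Tuba1b* and *Tuba1c* at 97.9%, *Tuba1a* and *Tuba1c* at 97.1%, and *Tubb2a* and *Tubb2b* at 96.5%. Over the first 1287 coding bases, *Tuba1b* and *Tuba1c* differed at 8. A window of 30 bases, the shortest footprint the study cut from the gel, was found at no other place in the genome and in no other gene's transcript for 2.22% of the windows in the counted coding sequence of *Tuba1a*, 2.37% in *Tuba1b* and 4.53% in *Tuba1c*. These shares were 91.8% in *Tuba4a*, 93.4% in *Tubb6* and 95.6% in *Tubb5*. *Tubb2a* had 27.6% and shared 65.2% of its windows with *Tubb2b*, and *Tubb4b* had 22.2% and shared 65.6% with the pseudogene *Tubb4b-ps1*. *Tubg1* had 65.3% and shared 32.9% with *Tubg2*. Since the authors kept alignments above a minimum mapping quality, reads from shared windows could be lost or placed by a few differing bases. RPF values of *Tuba1a*, *Tuba1b*, *Tuba1c*, *Tubb2a* and *Tubb4b* are therefore uncertain. Over all exons the shares of unique windows were 17.2%, 10.8%, 31.9%, 42.8% and 24.2% in these genes. Their mRNA and TE values are thus uncertain as well. The shares count exact copies only.

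**Figure D1:**
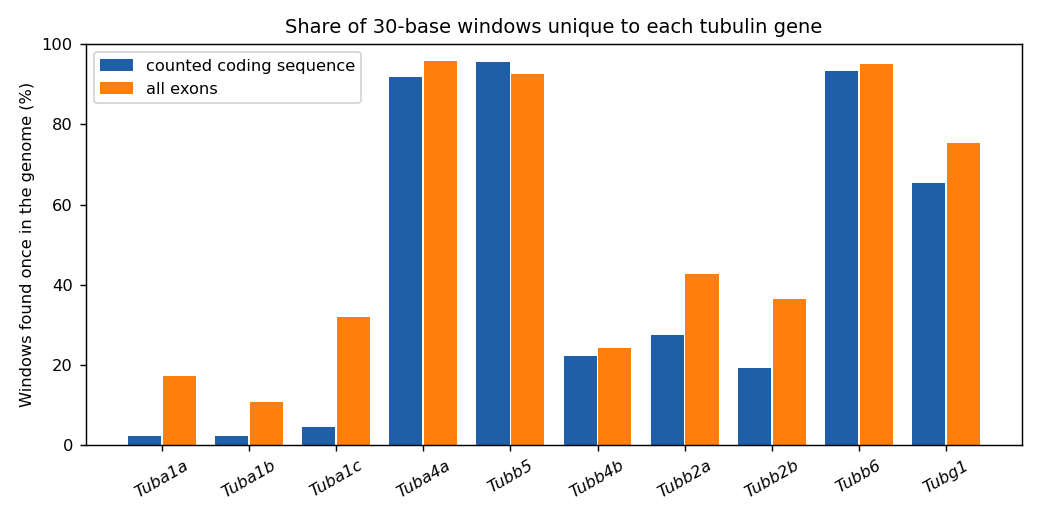
Share of 30-base windows (y axis, %) that occur at no other place in the genome and in no other gene's transcript, for the counted coding sequence (blue) and all exons (orange) of each tubulin gene (x axis). *Tuba4a*, *Tubb5* and *Tubb6* exceed 90% in both, whereas *Tuba1a*, *Tuba1b* and *Tuba1c* stay below 5% in the coding sequence.

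Per kilobase of exon, *Tubb5*, the β-tubulin gene that most proliferating cells use, had the highest level of the 10. Its mRNA in WT clones was 8826 ± 2502 normalized counts (SD, n = 3), in place 121 of 10366 genes. *Tubb4b* followed with 2181 ± 208 and *Tuba1b* with 2129 ± 935, which did not differ beyond their spread. *Tuba4a* (1293 ± 115) and *Tuba1c* (1252 ± 248) did not differ beyond their spread either, and neither did *Tubb6* (773 ± 119) and *Tuba1a* (619 ± 206). *Tubg1* was at 279.6 ± 26.9 and *Tubb2a* at 101 ± 40.0 (SD, n = 3). *Tubb2b*, the copy next to *Tubb2a*, had no read in any R98S clone or in WT clone 28 and 1 read each in WT clones 29 and 36. Since 0 reads allow up to 3, the gene was not detectable at this depth. Only 36.4% of its exon windows of 30 bases are unique, so reads from shared windows could also have been lost.

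Per kilobase of counted coding sequence, *Tubb5* RPF stood at 19462 ± 5878 normalized counts in WT clones (SD, n = 3), in place 23 of 9281 genes. *Tuba4a* came next with 1818 ± 459 and *Tubb4b* with 1618 ± 172, which overlapped. *Tuba1c* (897 ± 232), *Tuba1a* (735 ± 150) and *Tubb6* (620.0 ± 152) overlapped with their neighbours as well, although *Tuba1a* stood above *Tubb6* within every WT clone. *Tuba1b* (281.5 ± 53.6) and *Tubg1* (250.6 ± 58.2) were close to each other, and *Tubb2a* was lowest at 72.8. *Tuba1b* thus led the α-tubulins in mRNA and was the lowest of the 4 in RPF. These orders rest on the length used. Per kilobase of sequence unique over 30 bases, *Tuba1b* mRNA (20062 ± 8807) stood above *Tubb5* mRNA (9653 ± 2737), and *Tuba1a* RPF (33921 ± 6911) above *Tubb5* RPF (20838 ± 6294; SD over 3 WT clones). With windows of 50 bases *Tuba1b* mRNA was at 16279 ± 7146 and *Tubb5* mRNA at 9118 ± 2585. *Tubb5* RPF was at 20258 ± 6119 and *Tuba1a* RPF at 11872 ± 2419. The ranges over WT clones overlapped in both pairs. Within every WT clone, however, *Tuba1b* mRNA stood above *Tubb5* mRNA, and *Tubb5* RPF above *Tuba1a* RPF. *Tuba1b* made up 34.4% ± 9.78 of all α-tubulin mRNA per kilobase in WT clones (SD, n = 3) but 5.46% ± 0.0465 of α-tubulin RPF. Per unique kilobase, these shares became 65.4% ± 9.85 and 17.4% ± 1.89. *Tubb5* made up 72.6% ± 4.45 of β-tubulin mRNA and 88.8% ± 2.59 of β-tubulin RPF per kilobase, and 47.5% ± 5.39 and 70.4% ± 4.91 per unique kilobase.

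**Figure D2:**
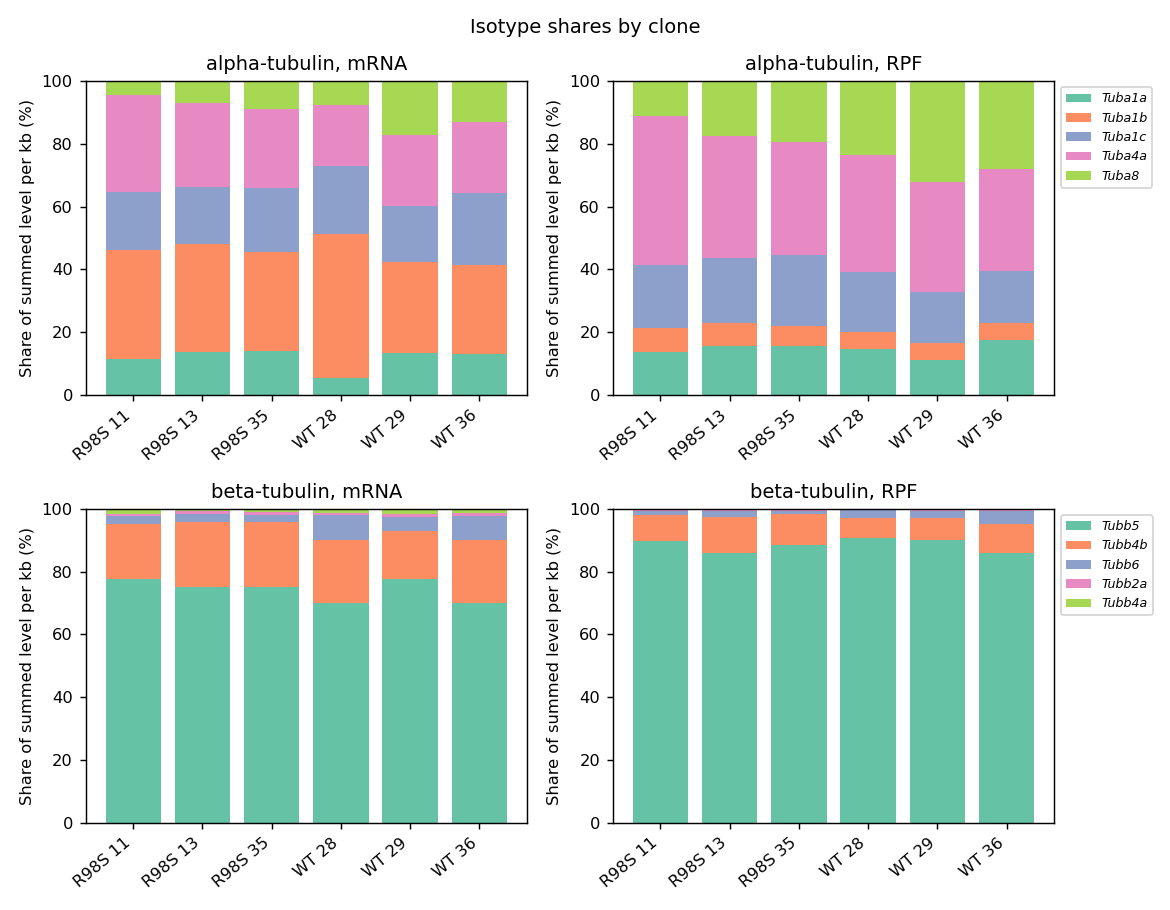
Share of each gene (y axis, %) in the summed level per kilobase of α-tubulin (top) and β-tubulin (bottom) mRNA and RPF in each clone (x axis). *Tubb5* takes most of the β-tubulin bar in every clone, and *Tuba1b* (orange, top) is wide in mRNA and narrow in RPF; genes with under 0.1% of a bar are not drawn.

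Within WT clones, the ratio of RPF to mRNA per length can be ranked among genes, although it has no absolute scale. *Tubb5* stood at percentile 95.4 of 8772 genes, at 325% of the median ratio, and *Tuba4a* at percentile 85.5, at 204%. With unique lengths these became percentiles 95.1 and 87.5. Here and below, unique lengths were applied to the tubulin gene only, while the genes it was ranked against kept full lengths. Such percentiles are thus not like-for-like ranks. *Tuba1b* was at percentile 1.82, with 20.5% of the median ratio, and moved to percentile 46.5 with unique lengths. *Tuba1a* moved from percentile 81.1 to 99.7, *Tuba1c* from 53.0 to 99.2 and *Tubb2a* from 55.3 to 78.2. For these 4 genes the ratio thus depends on the length used. The log2 ratio also varied between WT clones, with an SD of 0.67 for *Tubb5* and 0.82 for *Tuba1a*. In both genes WT clone 28 had the highest TE, at 1.80 and 1.64. The percentiles per length in R98S clones were 90.2 for *Tubb5* and 65.2 for *Tuba1a*.

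*Tubb6*, a β-tubulin gene, was the one tubulin gene of the 9 tested that passed the test between genotypes. In normalized counts, the mRNA of R98S clones 11, 13 and 35 was at 504, 509 and 402, against 1367, 1145 and 1563 for WT clones 28, 29 and 36. Clones are given in this order throughout. Every R98S clone was below every WT clone. *Tubb6* mRNA changed by -1.52 on the log2(normalized count + 1) scale (standard error (SE) 0.20, adjusted p = 0.00298, limma), a level 2.87 times as high in WT as in R98S clones.

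*Tubb6* RPF was at 271, 353 and 195 in R98S and at 962, 579.9 and 841 in WT clones. Again the groups did not overlap. The log2 change of RPF was -1.55 (SE 0.26, adjusted p = 0.0123, limma). The TE of *Tubb6* was 0.539, 0.693 and 0.485 in R98S and 0.704, 0.507 and 0.538 in WT clones. These values overlapped, and the log2 difference was -0.03 with a 95% interval from -0.51 to 0.45 (adjusted p = 0.977, limma). Without WT clone 28 the mRNA change was -1.51 and the RPF change -1.39, both still called. Over the 6 fits that left out 1 clone, the adjusted p stayed between 0.00530 and 0.0209 for mRNA and between 0.0109 and 0.0549 for RPF (limma). The reads behind these values number at least 468 per mRNA and 116 per RPF library, and 93.4% of the coding windows are unique.

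Of all genes, 6.94% of 11344 passed for mRNA (adjusted p under 0.1), 3.91% being lower in R98S, and 7.76% of 9580 for RPF, 4.62% being lower. Of the 9 tested tubulin genes, 1 passed in each assay. The groups did not overlap for 2 of 9 in mRNA and for 2 of 9 in RPF, R98S being lower in all 4 cases. Over all genes the groups did not overlap for 23.5% in mRNA, 11.6% with R98S lower, and for 25.3% in RPF, 12.8% with R98S lower. The log2 change was below 0 for 6 of 9 in mRNA, with a median of -0.08, and for 7 of 9 in RPF, with a median of -0.34. The median of all tested genes was 0.01 in both.

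**Figure D3:**
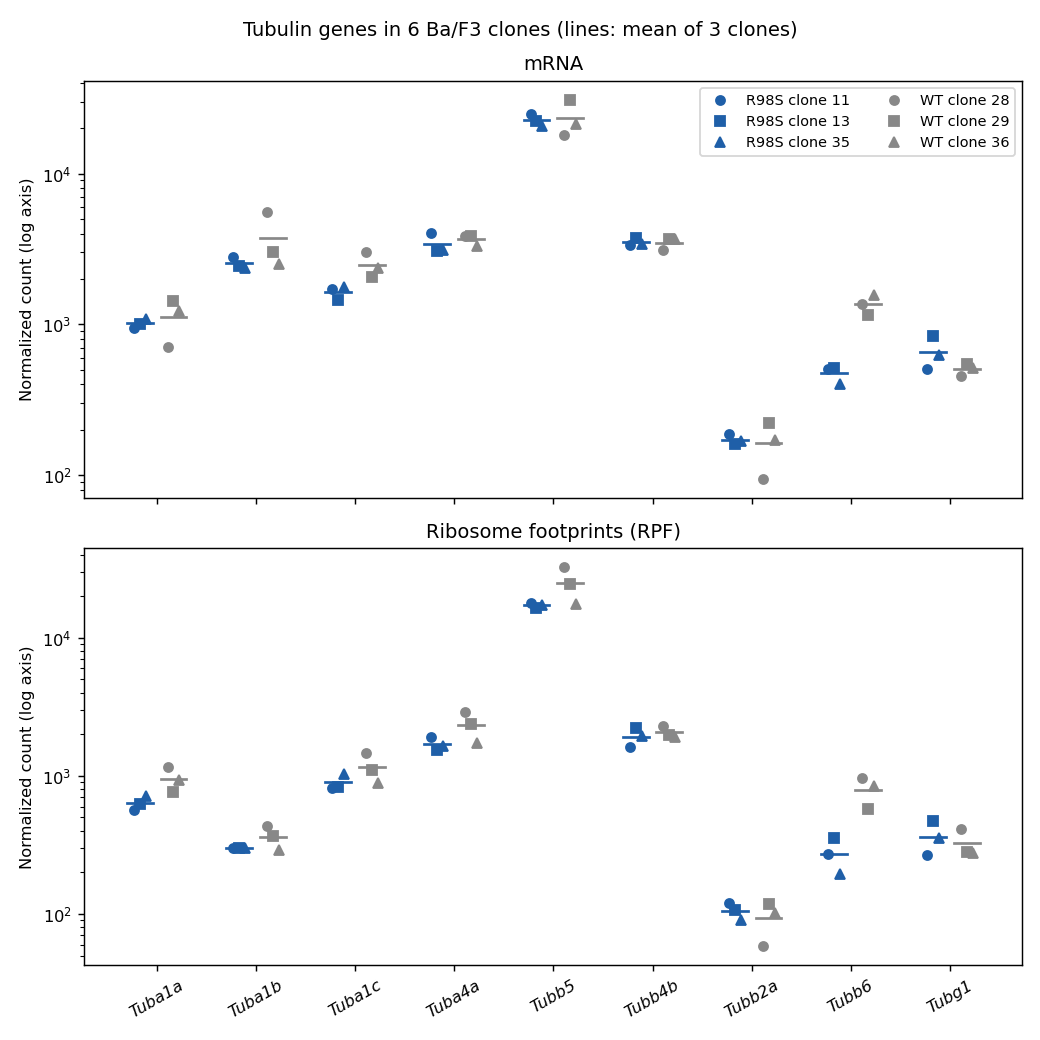
Normalized counts (y axis, log scale) of 9 tubulin genes in mRNA (top) and RPF (bottom), with R98S clones in blue, WT clones in gray and the mean of 3 clones as a line. *Tubb6* separates the genotypes in both panels, and WT clone 28 (gray circle) is often the highest of the 6 clones in RPF.

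Of the α-tubulin genes, none passed, and 2 had clones that did not overlap in 1 assay. Among all genes, 6.94% passed in mRNA and 7.76% in RPF, and the groups did not overlap for 23.5% and 25.3%. *Tuba1c*, a ubiquitous α-tubulin, had 1713, 1446 and 1771 mRNA counts in R98S and 3026, 2073 and 2346 in WT clones. All R98S clones were lower. The log2 difference was -0.58 with a 95% interval from -1.01 to -0.16 (adjusted p = 0.137, limma), and with DESeq2 on whole reads it passed (adjusted p = 0.0621). Its RPF overlapped, at 823, 833 and 1033 against 1475, 1107 and 883 (log2 difference -0.34, adjusted p = 0.402, limma).

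*Tuba1a*, the α-tubulin that dominates in developing neurons, showed the reverse pairing of assays. Its RPF was at 562, 623 and 719 in R98S and at 1151, 765 and 933 in WT clones. R98S clones were all lower, by -0.57 on the log2 scale (95% interval from -1.01 to -0.13, adjusted p = 0.139, limma). DESeq2 gave an adjusted p of 0.0891, and without WT clone 29 limma gave 0.0872, so the call depends on the method and on that clone. Its mRNA was at 947, 1004 and 1092 against 704, 1423 and 1222, with WT clone 28 lowest and WT clone 29 highest (log2 difference -0.08, adjusted p = 0.913, limma).

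*Tuba1b*, a further ubiquitous α-tubulin, had 2805, 2441 and 2376 mRNA counts in R98S and 5569, 3039 and 2526 in WT clones. WT clone 28 stood above the other 5 clones, which overlapped. The log2 difference was -0.46 (95% interval from -1.07 to 0.14, adjusted p = 0.415, limma). *Tuba1b* RPF was at 302, 300.0 and 299 against 431, 369 and 293, a log2 difference of -0.26 (adjusted p = 0.493, limma). For *Tuba4a*, whose α-tubulin is made without the terminal tyrosine, the mRNA difference was -0.12 (95% interval from -0.51 to 0.28) and the RPF difference -0.43 (from -0.89 to 0.04), with adjusted p = 0.782 and 0.292 (limma). *Tuba4a* RPF was at 1919, 1547 and 1649 in R98S and at 2909, 2363 and 1730.2 in WT clones, where WT clone 36 lay within the R98S range. Summed over the 4 α-tubulin genes, RPF was at 3606, 3303 and 3699 in R98S and at 5966, 4604 and 3839 in WT clones. How the kept reads divide among *Tuba1a*, *Tuba1b* and *Tuba1c* does not alter this sum. Reads dropped because they match more than 1 place, these genes included, are missing from it, and *Tuba4a* is its largest part.

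*Tubb5* mRNA was at 25034, 22229 and 20633 in R98S and at 17971, 30774 and 21393 in WT clones. The WT clones held both the lowest and the highest value. The log2 difference was -0.01 with a 95% interval from -0.51 to 0.48 (adjusted p = 0.981, limma). *Tubb5* RPF was at 17902, 16331 and 17365 in R98S and at 32353, 24507 and 17405 in WT clones. The R98S clones lay close together, and WT clone 36 was within their range. RPF differed by -0.48 (95% interval from -1.03 to 0.06, adjusted p = 0.308, limma), and without WT clone 28 by -0.27.

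*Tubb4b* encodes a widely expressed β-tubulin. Its mRNA was at 3381, 3717 and 3407 in R98S and at 3102, 3665 and 3687 in WT clones. The log2 difference was 0.01 with a 95% interval from -0.34 to 0.36 (adjusted p = 0.981, limma), and its sign turned in some alternative settings. For *Tubb4b* RPF it was -0.11 (from -0.51 to 0.30, adjusted p = 0.782, limma). *Tubb2a*, a β-tubulin best known from neurons, was low, with mRNA from 161 to 186 in R98S and from 94.0 to 222 in WT clones. The mRNA difference was 0.16 (from -0.56 to 0.89) and the RPF difference 0.24 (from -0.40 to 0.88), with adjusted p = 0.845 and 0.691 (limma), and both turned negative without WT clone 28. Summed over the β-tubulin genes, RPF was at 19908, 19016 and 19589 in R98S and at 35685, 27186 and 20245 in WT clones, most of it *Tubb5*.

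*Tubg1*, which encodes the γ-tubulin of the centrosome, had 509, 835 and 627 mRNA counts in R98S and 451, 547 and 513 in WT clones. R98S clone 11 lay within the WT range. The log2 difference was 0.36 (95% interval from -0.14 to 0.86, adjusted p = 0.451, limma). *Tubg1* RPF was at 265, 469 and 354 against 411, 283 and 278, a difference of 0.15 (from -0.40 to 0.70, adjusted p = 0.777, limma).

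**Figure D4:**
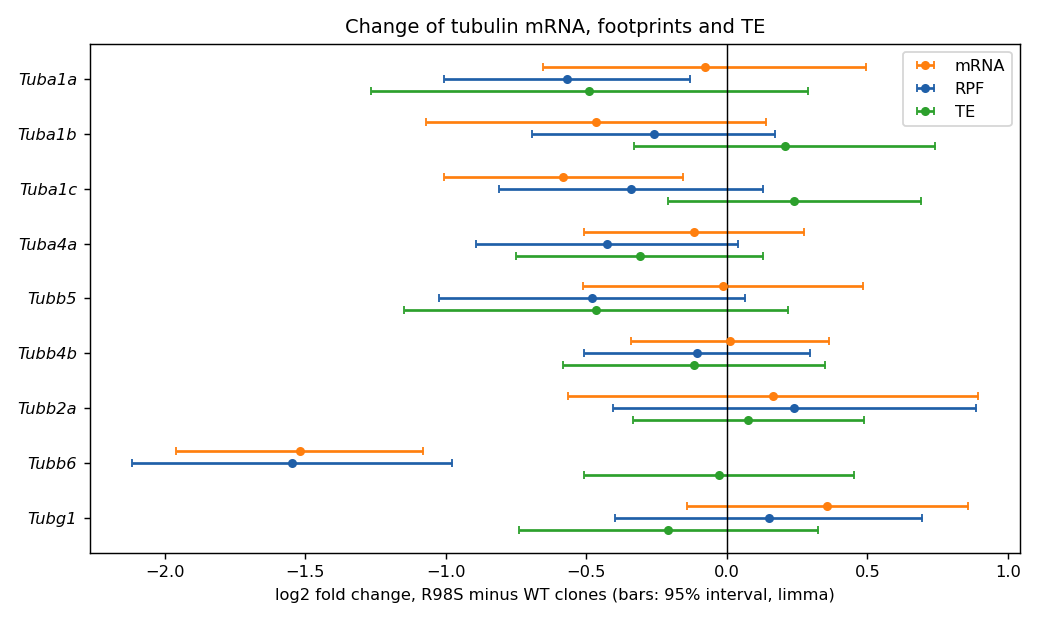
Log2 fold change of R98S against WT clones (x axis) for mRNA, RPF and TE of each tubulin gene (y axis), with 95% intervals from limma over 3 clones per genotype. The intervals of *Tubb6* mRNA and RPF end at -1.08 and -0.98, and all TE intervals include 0.

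No tubulin gene passed the test for TE, with limma, edgeR or DESeq2, and none had an unadjusted p under 0.05 with limma. Over all genes, 2 of 9043 passed with limma, which is 0.0221%, and 710 (7.85%) had an unadjusted p under 0.05. With DESeq2 54 genes passed and with edgeR 3. The TE of all 9 tested tubulin genes overlapped between genotypes, whereas for 14.8% of all genes it did not. Their log2 differences ran from -0.49 (*Tuba1a*) to 0.24 (*Tuba1c*), with a median of -0.12. *Tubb5* TE was at 0.715, 0.735 and 0.842 in R98S and at 1.80, 0.796 and 0.814 in WT clones. The value of WT clone 28 stood apart, and the other 5 clones overlapped. The log2 difference of -0.47 had a 95% interval from -1.15 to 0.22 (adjusted p = 0.691, limma) and shrank to -0.08 without WT clone 28. *Tuba1a* TE was at 0.594, 0.621 and 0.659 against 1.64, 0.538 and 0.763, and its difference of -0.49 shrank to -0.04 without the same clone.

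WT clone 28 gave the highest TE in 6 of the 9 genes (*Tuba1a*, *Tuba4a*, *Tubb5*, *Tubb4b*, *Tubb6* and *Tubg1*) and the lowest in *Tuba1b*, at 0.0775 against 0.108 to 0.126 in the other clones. It was the highest clone for 34.2% of all genes with a TE value and the lowest for 31.0%. In RPF this clone was the highest for 7 of 9 tubulin genes, against 20.2% of all genes, and in mRNA the lowest for 5 of 9, against 27.5%. Its mRNA library was also the shallowest. The part of depth in its tubulin values was not tested.

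**Figure D5:**
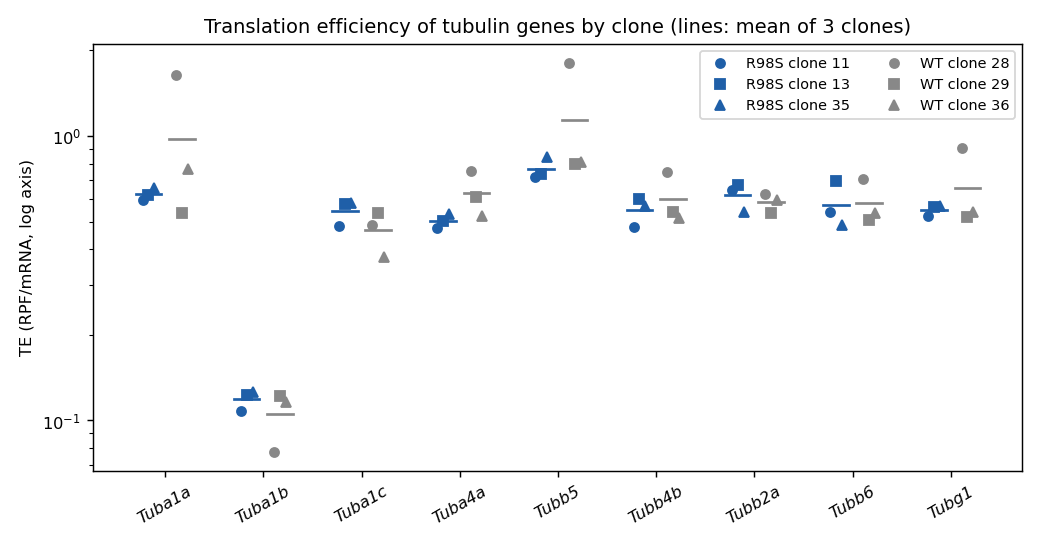
TE (RPF divided by mRNA, y axis, log scale) of 9 tubulin genes (x axis), with R98S clones in blue, WT clones in gray and the mean of 3 clones as a line. WT clone 28 (gray circle) lies at 1.80 for *Tubb5* and 1.64 for *Tuba1a*, above all other clones, and at 0.0775 for *Tuba1b*, below them.

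Of 10 further tubulin genes, 4 could be tested in each assay, and of all genes 6.94% passed in mRNA and 7.76% in RPF. *Tuba8*, a divergent α-tubulin, was the one of these 4 that passed. Its mRNA was at 468, 648 and 863 in R98S and at 1206, 2295 and 1517 in WT clones. Every R98S clone was lower. *Tuba8* mRNA changed by -1.33 on the log2 scale (SE 0.29, adjusted p = 0.0347, limma). The call did not survive the omission of R98S clone 11 or 13 or of WT clone 36, with adjusted p = 0.132, 0.123 and 0.103 (limma). *Tuba8* RPF was at 445, 698 and 883 against 1825, 2173 and 1485, again without overlap, and fell by 1.47 (SE 0.25, adjusted p = 0.0130, limma), with a call in all 6 fits that left out 1 clone. Its TE differed by -0.14 (adjusted p = 0.872, limma). *Tuba8* made up 15.9% ± 4.36 of α-tubulin RPF per kilobase in R98S and 27.8% ± 4.32 in WT clones (SD, n = 3), but 1.09% ± 0.270 and 2.21% ± 0.574 per unique kilobase. *Tubb6* made up 2.39% ± 0.191 of β-tubulin mRNA in R98S and 6.69% ± 2.03 in WT clones.

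*Tubb4a* was at 176 to 401 mRNA counts in R98S and at 303 to 539 in WT clones (log2 difference -0.57, adjusted p = 0.439, limma). The centriolar tubulin genes *Tubd1* and *Tube1* differed by 0.31 and -0.10 in mRNA (adjusted p = 0.600 and 0.876, limma). The neuronal β-tubulin gene *Tubb3* had from 5 to 18 reads per mRNA library and was not tested, with 5.56, 6.55 and 6.88 normalized counts in R98S and 13.4, 14.8 and 12.5 in WT clones. *Tuba3a*, *Tuba3b*, *Tubb1* and *Tubg2* had at most 5 reads in any mRNA library, and *Tubal3* had none.

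Of 19 genes of tubulin autoregulation and the CCR4-NOT complex, 1 passed in mRNA and 2 in RPF, all lower in R98S, and none in TE. Over all genes, 6.94% passed in mRNA, 7.76% in RPF and 0.0221% in TE. *Btg1*, an antiproliferative protein that binds the CCR4-NOT deadenylases, had 426, 263 and 452 mRNA counts in R98S and 1531, 1145 and 806 in WT clones. The groups did not overlap, and *Btg1* mRNA fell by 1.60 (SE 0.29, adjusted p = 0.0158, limma). *Btg1* RPF fell by 1.49 (adjusted p = 0.0392, limma) from 71.0 ± 13.7 in WT to 25.6 ± 10.1 in R98S clones (SD, n = 3), a call lost without R98S clone 13 (adjusted p = 0.158) or WT clone 28 (adjusted p = 0.103). *Cnot6l*, a deadenylase subunit, fell in RPF by 0.74 (adjusted p = 0.0736, limma), a call that was lost whenever 1 clone was left out. *Cnot6l* mRNA overlapped and differed by -0.09 (adjusted p = 0.816, limma). Its TE differed by -0.64, with every R98S clone lower, and was not called (adjusted p = 0.629, limma). *Ttc5*, which recognises the nascent tubulin chain, was at 782, 744 and 566 mRNA counts in R98S and at 1131, 717 and 649 in WT clones. These overlapped, with a difference of -0.22 (95% interval from -0.78 to 0.33, adjusted p = 0.691, limma), and *Ttc5* RPF and TE differed by 0.06 and 0.28. *Scaper* RPF was lower in every R98S clone (log2 difference -0.94, adjusted p = 0.125, limma), while its mRNA and TE overlapped. In RPF the groups did not overlap for 6 of the 19 genes with R98S lower and for 0 with R98S higher. Over all genes these were 25.3% in both directions and 12.8% with R98S lower. In mRNA 2 of the 19 were higher and 2 lower without overlap, against 23.5% of all genes. The median log2 change of the 19 genes was 0.06 in mRNA and -0.08 in RPF.

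None of the 13 tubulin folding cofactors, the 8 subunits of the CCT chaperonin, which folds tubulin, or the 11 genes of the γ-tubulin ring complex passed in any of the 3 comparisons. The share of all genes that passed was 6.94% in mRNA, 7.76% in RPF and 0.0221% in TE. The largest mRNA differences were -0.44 for the cofactor *Tbca*, 0.28 for *Cct6a* and 0.49 for *Tubgcp4* (adjusted p = 0.312, 0.783 and 0.457, limma), that of *Cct6a* resting on 5 to 26 reads per library. Median RPF changes of the 3 lists were -0.03, -0.14 and 0.20.

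Of the tubulin modifying enzymes, 15 could be tested in mRNA and 11 in RPF. Over all genes, 6.94% passed in mRNA and 7.76% in RPF. *Agtpbp1*, a deglutamylase that trims tubulin tails, passed in both. Its mRNA was at 721, 646 and 597 in R98S and at 988, 1073 and 1007 in WT clones and fell by 0.65 (SE 0.17, adjusted p = 0.0750, limma), a call kept in 1 of the 6 fits that left out 1 clone. *Agtpbp1* RPF was at 86.7, 54.5 and 85.6 against 137, 199 and 166, without overlap, and fell by 1.15 (SE 0.26, adjusted p = 0.0392, limma). This call was lost without R98S clone 13 (adjusted p = 0.161) or WT clone 36 (adjusted p = 0.114).

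Among 18 proteins of microtubule dynamics, *Mapre3*, an end-binding protein, rose in mRNA and the microtubule polymerase *Ckap5* fell in RPF. All 18 were tested in mRNA and 17 in RPF, where 6.94% and 7.76% of all genes passed. *Mapre3* mRNA was at 73.8, 69.6 and 64.5 in R98S clones, with 0 reads in every WT clone. With a floor of 3 reads per WT library, the mean floor was 4.29 normalized counts. Against this mean, the R98S mean is at least 16.1-fold higher (adjusted p = 0.000297, limma). The floor of WT clone 28, where 1 read is worth 2.69 normalized counts, lies above that mean. *Mapre3* is not among the genes of the RPF table, so its footprints and TE were not tested. *Ckap5* RPF was at 1439, 1491 and 1577 in R98S and at 3312, 2765 and 1811 in WT clones. R98S clones were all lower, by -0.76 in log2 units (SE 0.22, adjusted p = 0.0845, limma), and this call was lost without R98S clone 11 or 13 or WT clone 28 or 29 (adjusted p from 0.158 to 0.256). *Ckap5* mRNA differed by 0.03 (adjusted p = 0.975, limma). In the 8 alternative settings with all clones, *Ckap5* TE differed by -0.79 to -0.78 and was not called.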

How the data were processed

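Ribosome footprints and mRNA of 6 Ba/F3 clones (12 libraries) were sequenced. For footprints, the authors merged 3 technical replicates per clone, filtered out rRNA and tRNA with Bowtie2, mapped what remained to mm10 with TopHat2 (version 2.0.11 in the submitters' processing notes), kept primary alignments with a mapping quality of at least 10 and counted them in coding sequences without the first 15 and last 5 codons. mRNA reads were counted on exons. The gene annotation used is not given in the sources used here. The authors deposited 1 table of signal values per assay, gene counts divided by DESeq2 size factors. All values (100%) were whole multiples of 1 read's worth, to within 0.001 reads, so the reads could be recovered. The 2 tables were normalized separately.

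log2(value + 1) was compared between genotypes with limma 3.58.1 (R 4.3.3, variance trend) for genes with a mean of at least 10, and TE as the RPF minus mRNA difference per clone for genes with at least 10 in all 12 libraries. On this scale, fold changes of genes with few counts come out too small. P-values were Benjamini-Hochberg adjusted over all tested genes with a threshold of 0.1. An exact permutation test of 3 against 3 clones cannot go below 0.1. The clone numbers tie both libraries of a clone together. Deviations of the 2 libraries from their genotype means had a mean correlation of 0.519, from 0.218 in WT clone 28 to 0.681 in WT clone 29. Genotypes share no clone number. Alternatives were other pseudocounts (0.5 and 5), no filter, edgeR 4.0.16 and DESeq2 1.42.0 on recovered reads, TMM scaling, removal of chromosome medians, TE without pairing, and leaving out each clone. Levels per kilobase used the longest annotated coding transcript, and unique lengths came from exact matches of 30-base windows to the mm10 genome and the GENCODE M21 transcripts. Babel, the package the study used for TE, was not run.

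The genes and lists were chosen with earlier results of these data known. Named are all 10 tubulin genes, every other tubulin gene of the list, each gene of the other lists past the threshold, the gene with the largest mRNA change in a list without one, and *Ttc5*. *Scaper* was added after its values were seen. The level of 1 B cell marker is not reported here.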

Additional observations from a re-analysis of the deposited data

How the results depend on the processing

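*Tubb6* was called lower in mRNA and RPF in every setting tried, and no tubulin gene of the 10 was called in TE in any. The counts over all genes moved more. With DESeq2 the mRNA counts became 591 higher and 692 lower, the RPF count 469 higher, and the TE counts 16 higher and 38 lower. Without the filter 4 genes were lower in TE. TE tested without the pairing of libraries by clone number (no replicate block) gave 0 genes higher and 3 lower, and changed no call of a tubulin gene. Leaving out 1 clone gave 130 to 491 higher and 182 to 622 lower genes in mRNA, 65 to 506 and 164 to 642 in RPF, and 0 to 1 and 0 to 2 in TE. With the medians of each chromosome removed, the log2 changes of *Tubb5* mRNA (0.013), *Tubb4b* mRNA (-0.10), *Ckap5* mRNA (-0.085) and *Ttc5* RPF (-0.11) turned sign, and *Agtpbp1* mRNA lost its call (adjusted p = 0.103, limma), as it did without the filter (0.103). The cause was not tested.

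None of the values whose sign turned when 1 clone was left out was called. Their ranges were, in mRNA, -0.38 to 0.13 for *Tuba1a*, -0.19 to 0.20 for *Tubb5*, -0.071 to 0.053 for *Tubb4b*, -0.18 to 0.43 for *Tubb2a*, -0.38 to 0.018 for *Ttc5*, -0.29 to 0.20 for *Ckap5* and -0.29 to 0.14 for *Tube1*. In RPF they were -0.22 to 0.015 for *Tubb4b*, -0.060 to 0.45 for *Tubb2a*, -0.055 to 0.36 for *Tubg1*, -0.21 to 0.024 for *Cct6a*, -0.14 to 0.18 for *Ttc5*, -0.15 to 0.23 for *Tubd1* and -0.36 to 0.041 for *Tube1*. In TE they were -0.00017 to 0.32 for *Tuba1b*, -0.22 to 0.050 for *Tubb4b*, -0.17 to 0.12 for *Tubb6*, -0.35 to 0.052 for *Tubg1*, -0.26 to 0.078 for *Tuba8*, -0.57 to 0.32 for *Tubb4a*, -0.12 to 0.39 for *Btg1*, -0.091 to 0.49 for *Tbca* and -0.15 to 0.56 for *Ttc5*.

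Isotype shares in WT clones moved with the length. Per kilobase unique over 30 bases, *Tuba1b* held 65.4% of α-tubulin mRNA and 17.4% of RPF, *Tuba4a* 4.75% and 2.89%, *Tubb5* 47.5% and 70.4% of the β-tubulins and *Tubb4b* 46.1% and 26.1%. Over 50 bases, chosen after seeing the data, these were 64.4% and 21.7%, 5.62% and 5.67%, 57.6% and 78.7%, and 34.6% and 17.6%. Depth limits *Tubb2b*, *Tubb3* and *Tubg2*, shared windows limit *Tubb2b* as well, and 3 clones per genotype limit every interval.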
